A study of Rattus norvegicus with 11 samples.

Results

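Axin2, Tnfrsf19 and Lef1 are target genes of canonical Wnt signalling, and they were followed here while rat embryonic stem cells were converted to hypoblast stem cells. They were chosen by name, 3 of 14506 genes measured, and each was read by a single probe set of the Affymetrix Rat Gene 1.0 ST array (10739302 for Axin2, 10784334 for Tnfrsf19 and 10819052 for Lef1). The cells, of the line DAc2, were collected at days 0, 7, 17 and 32, in a feeder arm (1 array per day) and a feeder-free arm (1 array at day 0 and 2 at each later day), 11 arrays in all. In the feeder arm the starting stem cells had been kept on mouse embryonic fibroblasts in N2B27 medium that held the GSK3 inhibitor CHIR99021 at 3 µM and the MEK inhibitor PD0325901 at 0.5 µM. In the feeder-free arm they had been kept on laminin in the same basal medium, with CHIR99021 again at 3 µM, PD0325901 at 2 µM and human BMP4 at 5 ng/mL. For the conversion both arms were moved to a medium of rat multipotent adult progenitor cells, for which the labels list the growth factors EGF and PDGF, LIF, and serum at 2%, and do not list CHIR99021. CHIR99021, PD0325901, the added factors, serum and the time in culture changed together between day 0 and the later days, so their effects on the 3 genes cannot be told apart. The starting cultures of the arms differed in fibroblasts or laminin, PD0325901 and BMP4 together, so these cannot be told apart in differences between the arms. Whether the feeder arm still held fibroblasts after day 0 is not stated, and all cells came from a single stem cell line.

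In the canonical Wnt pathway, GSK3 marks beta-catenin for destruction in a complex that is built on the scaffold proteins Axin1 and Axin2. Wnt ligands acting through Frizzled and Lrp5 or Lrp6 receptors, or an inhibitor of GSK3 such as CHIR99021, let beta-catenin build up and enter the nucleus, where it joins DNA-binding factors of the TCF/LEF family. Axin2 is a feedback inhibitor and its transcript is widely used as a readout of the pathway. Lef1 encodes one of the TCF/LEF factors. Tnfrsf19, also called Troy, encodes a receptor of the TNF receptor superfamily. In mouse embryonic stem cells GSK3 inhibition is known to help keep the naive state, in part by relieving repression by Tcf7l1.

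The sequences just before the starts of the 3 genes are shown because TCF/LEF factors bind a short motif that can be looked for in them. Each window holds 250 bases before and 50 bases after the start in RefSeq, build GRCr8, and was read 5′ to 3′ along the gene. The motif was searched as ACAAAG or TCAAAG on both strands, and matches are in capitals.
Axin2: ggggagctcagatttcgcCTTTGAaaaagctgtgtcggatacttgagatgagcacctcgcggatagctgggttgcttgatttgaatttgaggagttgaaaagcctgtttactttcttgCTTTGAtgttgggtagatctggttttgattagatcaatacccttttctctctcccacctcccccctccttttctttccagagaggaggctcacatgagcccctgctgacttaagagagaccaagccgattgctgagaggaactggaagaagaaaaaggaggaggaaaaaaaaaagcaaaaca
Tnfrsf19: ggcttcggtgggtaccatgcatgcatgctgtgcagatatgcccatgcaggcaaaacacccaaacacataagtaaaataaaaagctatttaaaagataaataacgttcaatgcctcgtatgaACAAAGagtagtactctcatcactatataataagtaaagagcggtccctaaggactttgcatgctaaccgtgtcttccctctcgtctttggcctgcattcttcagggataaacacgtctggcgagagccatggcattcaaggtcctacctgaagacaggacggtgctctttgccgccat
Lef1: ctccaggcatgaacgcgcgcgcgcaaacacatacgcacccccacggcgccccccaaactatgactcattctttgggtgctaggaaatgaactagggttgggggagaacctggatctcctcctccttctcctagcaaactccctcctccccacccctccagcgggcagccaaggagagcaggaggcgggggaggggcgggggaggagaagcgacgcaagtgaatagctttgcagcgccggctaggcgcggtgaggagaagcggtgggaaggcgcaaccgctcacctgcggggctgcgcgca
The Axin2 window (chr10:94398535-94398834, plus strand) held 2 matches, which began 232 and 132 bases before the start. The Tnfrsf19 window (chr15:39334517-39334816, minus strand) held 1 match, 129 bases before the start. The Lef1 window (chr2:222340463-222340762, plus strand) held 0 matches, which says only that these letters are not in this window. Its GC content was 64.7%, that of Axin2 45.7% and that of Tnfrsf19 45.3%. Of all 33469 promoter windows of the same length 31.4% held a match. Of the 16 windows found for a list of 22 Wnt target and feedback genes 8 did. So did 4 of the 8 windows found for paralogs of the 3 genes. Shares in the gene lists used below ranged between 7.69% (Wnt receptors) and 50%. A match describes the sequence and was not shown to be bound here.

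All 11 arrays had a median of 8.97 on the log2 scale. Feeder-free pairs of the same day correlated at 0.997 to 0.998 across genes. Genes for olfactory and vomeronasal receptors, taken as a background because such cells should lack them, had a median of 6.37, and 95% of their values lay below 8.10. The 3 Wnt targets lay above 8.10 on all 11 arrays. The lowest values of Tnfrsf19 (8.29) and Lef1 (8.55) came nearer to it than that of Axin2 (9.03), so the size of the falls of Tnfrsf19 and Lef1 may be understated. The pluripotency gene Nanog stood at 13.35 and 13.92 on the feeder and the feeder-free day 0 arrays, while Gata4, a transcription factor of the hypoblast, stood at 8.10 and 9.79. At day 32 Nanog lay at 7.13 in the feeder arm and at 7.71 and 7.08 in the feeder-free arm, and Gata4 at 14.38 in the feeder arm and at 14.24 and 14.20 in the feeder-free arm. The feeder day 7 array stood apart, with Nanog at 13.29, against 10.14 and 10.26 on the feeder-free day 7 arrays. Fibroblast markers, 16 measured, had a summed level of 133.2 to 156.5 in the feeder arm, highest at day 0, against 129.1 to 131.6 in the feeder-free arm. Postn, a matrix protein of fibroblasts, stood at 11.79 on the feeder day 0 array, against 6.80 on the feeder-free day 0 array. Mouse fibroblast RNA may bind to rat probes, and its part in the values of the 3 genes was not tested. In bulk samples, fewer cells of a type and less RNA per cell cannot be told apart.

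Axin2 and Tnfrsf19 were lower by day 7 in both arms, and none of their later changes passed in the fit over both arms. With 8 group means instead, their changes from day 7 to day 17 passed, at -0.28 for Axin2 (adjusted p = 0.017) and -0.40 for Tnfrsf19 (adjusted p = 0.00497). Lef1 was lower by day 7 in the feeder-free arm, whereas most of its fall in the feeder arm came between days 7 and 17. Over the whole conversion all 3 genes fell, with log2 changes at day 32 against day 0 of -2.43 ± 0.24 for Axin2, -2.74 ± 0.18 for Tnfrsf19 and -4.09 ± 0.47 for Lef1 (SE).

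**Figure D1:**
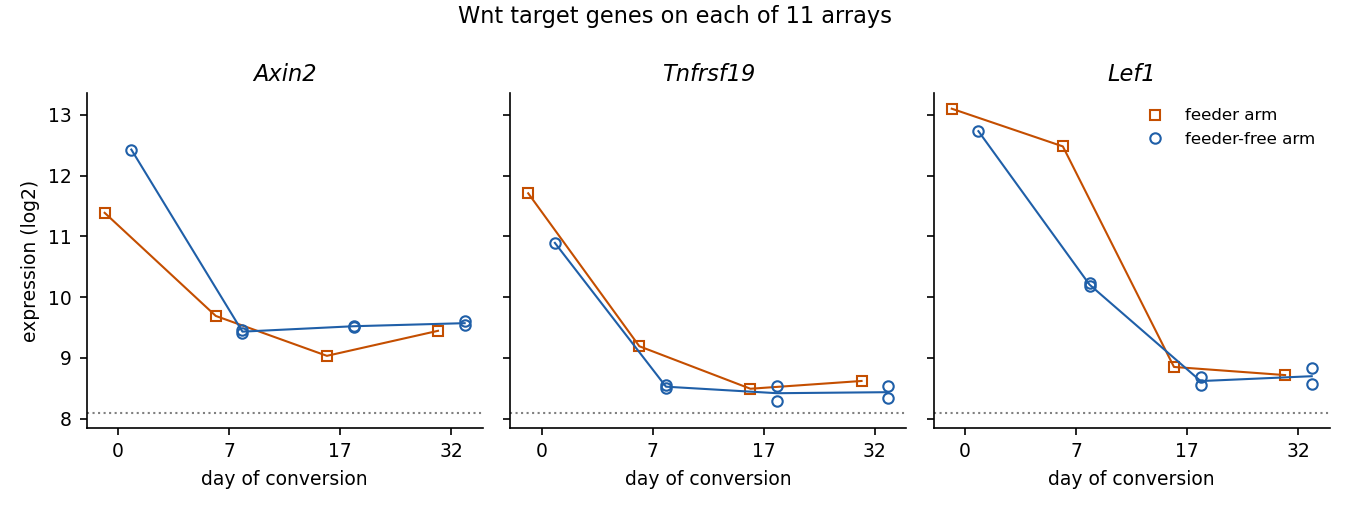
Expression of Axin2, Tnfrsf19 and Lef1 (log2, vertical axis) at days 0, 7, 17 and 32 of conversion (horizontal axis, days evenly spaced), with 1 point per array, squares for the feeder arm and circles for the feeder-free arm. Lines join the means of each day and the dotted line marks 8.10, below which 95% of the receptor genes lay. Lef1 stands at 12.48 on the feeder day 7 array, against 10.18 and 10.23 on the feeder-free day 7 arrays, while Axin2 and Tnfrsf19 have dropped in both arms.

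Axin2 had log2 values of 11.39, 9.69, 9.03 and 9.44 at days 0, 7, 17 and 32 in the feeder arm. In the feeder-free arm it stood at 12.43 at day 0, at 9.40 and 9.46 at day 7, at 9.51 and 9.53 at day 17, and at 9.60 and 9.54 at day 32. Both day 0 arrays were high, and the highest of the 9 later arrays, at 9.69, lay well below the lower of them. How many of all genes show such gaps between arrays was not counted, here or below. In the limma fit over both arms Axin2 fell by 2.44 ± 0.24 between day 0 and day 7 (SE, adjusted p = 0.000699), a 5.43-fold lower level. In that comparison 16.0% of all 14506 genes were called at an adjusted p under 0.05, 9.27% lower and 6.74% higher. Between day 7 and day 17 its change was -0.16 ± 0.21 (adjusted p = 0.651), and between day 17 and day 32 it was 0.17 ± 0.21 (adjusted p = 0.979). By day 7 the feeder arm had covered 87.4% and the feeder-free arm 105% of the change seen at day 32.

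The fall of Axin2 differed in size between the arms. Its change to day 7 was -1.70 in the feeder arm and -3.00 in the feeder-free arm, a difference of 1.30 ± 0.18 (limma with 8 group means, adjusted p = 0.000126; 22.0% of all genes were called in this test, 10.9% with a positive and 11.2% with a negative difference). The feeder day 0 array lay 1.04 below the feeder-free one (11.39 against 12.43), and at day 7 the arms lay within 0.26 of each other. Between days 7 and 17 Axin2 changed by -0.66 in the feeder arm and by 0.09 in the feeder-free arm, a difference of -0.75 ± 0.17 (limma, adjusted p = 0.00603). For day 32 against day 0 the difference passed as well, at 0.92 ± 0.18 (adjusted p = 0.00487, with 10.6% of all genes called, 5.87% positive and 4.73% negative). All 3 differences rest on the single arrays of the feeder arm, and those from day 0 also on the single feeder-free day 0 array, which the fit assumes to vary like the feeder-free pairs.

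Tnfrsf19 had log2 values of 11.71, 9.19, 8.49 and 8.62 at days 0, 7, 17 and 32 in the feeder arm. In the feeder-free arm it stood at 10.89 at day 0, at 8.55 and 8.50 at day 7, at 8.54 and 8.29 at day 17, and at 8.53 and 8.34 at day 32. As with Axin2, the 9 later arrays, at 9.19 at most, lay below both day 0 arrays, but here the feeder day 0 array was the higher of the pair. Tnfrsf19 fell by 2.49 ± 0.18 to day 7 (limma, SE, adjusted p = 0.000196), a 5.60-fold lower level. The fall was -2.52 in the feeder arm and -2.37 in the feeder-free arm, and the difference of -0.15 ± 0.21 did not pass (limma, adjusted p = 0.71). Between days 7 and 17 the change was -0.70 in the feeder arm and -0.11 in the feeder-free arm, and this difference, -0.59 ± 0.20, also missed the threshold (limma, adjusted p = 0.051). It passed under several of the alternative settings, with adjusted p values between 0.0144 and 0.162 when single arrays were left out. Tnfrsf19 lay higher in the feeder arm by 0.817, 0.666, 0.074 and 0.185 at days 0, 7, 17 and 32. Over all 4 days it was 0.41 ± 0.12 higher there (limma, adjusted p = 0.033, with 32.7% of all genes called, 15.5% higher and 17.2% lower). This call was lost when any one of 7 arrays was left out (highest adjusted p = 0.0926), namely both day 0 arrays, all 3 day 7 arrays, and the second feeder-free arrays of days 17 and 32.

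Lef1 had log2 values of 13.10, 12.48, 8.85 and 8.72 at days 0, 7, 17 and 32 in the feeder arm. In the feeder-free arm it stood at 12.73 at day 0, at 10.18 and 10.23 at day 7, at 8.68 and 8.55 at day 17, and at 8.83 and 8.56 at day 32. The day 0 arrays and the feeder day 7 array were high, the feeder-free day 7 arrays lay in between, and the 6 arrays of days 17 and 32 were low, with no overlap of these 3 levels. By day 7 the feeder arm had covered 14.2% and the feeder-free arm 62.6% of the change seen at day 32. The change to day 7 was -0.62 in the feeder arm and -2.53 in the feeder-free arm, a difference of 1.91 ± 0.21 (limma, adjusted p = 1.44e-05). From day 7 to day 17 the order turned, with -3.63 in the feeder arm and -1.59 in the feeder-free arm, a difference of -2.04 ± 0.20 (limma, adjusted p = 5.22e-06, with 19.7% of all genes called, 10.7% positive and 8.97% negative).

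Over both arms Lef1 fell by 1.83 ± 0.47 between day 0 and day 7 (limma, adjusted p = 0.0315). This call was lost with a replicate block (adjusted p = 0.0681) and without any one of 7 arrays, namely both day 0 arrays, both feeder-free day 7 arrays, both feeder-free day 17 arrays and the second feeder-free day 32 array (highest adjusted p = 0.229). Between day 7 and day 17 it fell by 2.27 ± 0.41 (limma, adjusted p = 0.0138, with 12.8% of all genes called, 3.65% lower and 9.10% higher), a call lost without the second feeder-free day 17 array (adjusted p = 0.0566) or the feeder day 17 array (adjusted p = 0.0657). Between days 17 and 32 the change was 0.01 ± 0.41 (adjusted p = 0.999). Over all days the feeder minus feeder-free difference was 0.75 ± 0.32 for Lef1 (limma, adjusted p = 0.107). For Axin2 it was -0.30 ± 0.16 (adjusted p = 0.186), and both passed with 8 group means. At days 0, 7, 17 and 32 it was 0.37, 2.28, 0.23 and 0.02 for Lef1. For Axin2 it was -1.04, 0.26, -0.49 and -0.13 on these days. At the end the arms lay close, with 8.72 in the feeder arm and a mean of 8.70 ± 0.19 in the feeder-free arm at day 32 (SD, n = 2). The fall over the whole conversion was 17.0-fold (limma, adjusted p = 0.000502), the fall of Axin2 5.39-fold (adjusted p = 0.000301) and that of Tnfrsf19 6.67-fold (adjusted p = 5e-05). In that comparison 31.0% of all genes were called, 13.7% lower and 17.4% higher. For these 3 falls the adjusted p stayed between 2.84e-08 and 0.00782 when single arrays were left out.

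From day 17 to day 32 none of the 3 genes passed, nor did any other gene (0.00% called by limma, with 1057 of 14506 genes at an unadjusted p under 0.05). Tnfrsf19 moved by 0.05 ± 0.16 (adjusted p = 0.999). The number of genes called in that comparison was 934 when each day and arm had its own mean, and the 3 Wnt targets did not pass there either.

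When the 8 group means were put in order, means were read as separate where they lay over 2 SDs apart, with the SD pooled over the feeder-free pairs (0.04 for Axin2, 0.13 for Tnfrsf19 and 0.12 for Lef1). The day 0 groups ranked first and second for all 3 genes, with the feeder-free one on top for Axin2 and the feeder one on top for Tnfrsf19 and Lef1. The feeder day 7 array came next in each case. For Tnfrsf19 the 5 groups below it, between 8.62 and 8.42, had no neighbours that lay apart. For Lef1 the feeder-free day 7 mean of 10.20 ± 0.03 (SD, n = 2) came after it, and the 4 groups of days 17 and 32, between 8.85 and 8.62, had no neighbours that lay apart. For Axin2, with its small spread, the lowest was the feeder day 17 array at 9.03, 0.40 below the feeder-free day 7 mean of 9.43 ± 0.04 (SD, n = 2).

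Among the paralogs, Axin1, the scaffold that is not itself a feedback target, stood between 11.87 and 12.27 in the feeder arm and between 12.11 and 12.41 in the feeder-free arm. Its change from day 0 to day 32 was -0.03 ± 0.13 (limma, adjusted p = 0.884). Tcf7, a TCF/LEF factor, fell by 0.50 ± 0.14 to day 7 (adjusted p = 0.0409) and by 1.19 ± 0.14 to day 32 (adjusted p = 0.000539). Tcf7l1, which acts mainly as a repressor, changed by -0.17 ± 0.27 to day 32 (adjusted p = 0.696). Its change to day 7 was 0.70 in the feeder arm and -0.88 in the feeder-free arm, a difference of 1.58 ± 0.19 (limma, adjusted p = 2.48e-05). Of the relatives of Tnfrsf19, the TNF receptor gene Tnfrsf1a rose by 1.62 ± 0.23 to day 7 (adjusted p = 0.00437) and by 2.04 ± 0.23 to day 32 (adjusted p = 0.000508). Tnfrsf1b changed by 0.30 ± 0.16 to day 7 (adjusted p = 0.242) and by -1.33 ± 0.16 to day 32 (limma, adjusted p = 0.00059). The day 7 rise of Tnfrsf1a was 0.90 in the feeder arm and 2.10 in the feeder-free arm. Tnfrsf21 at 0.21 and Ngfr at 0.38 did not pass from day 0 to day 32. Of the 7 paralogs measured, 1 rose and 1 fell at day 7 (16.0% of all genes called), and 1 rose and 2 fell at day 32 (31.0%).

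**Figure D2:**
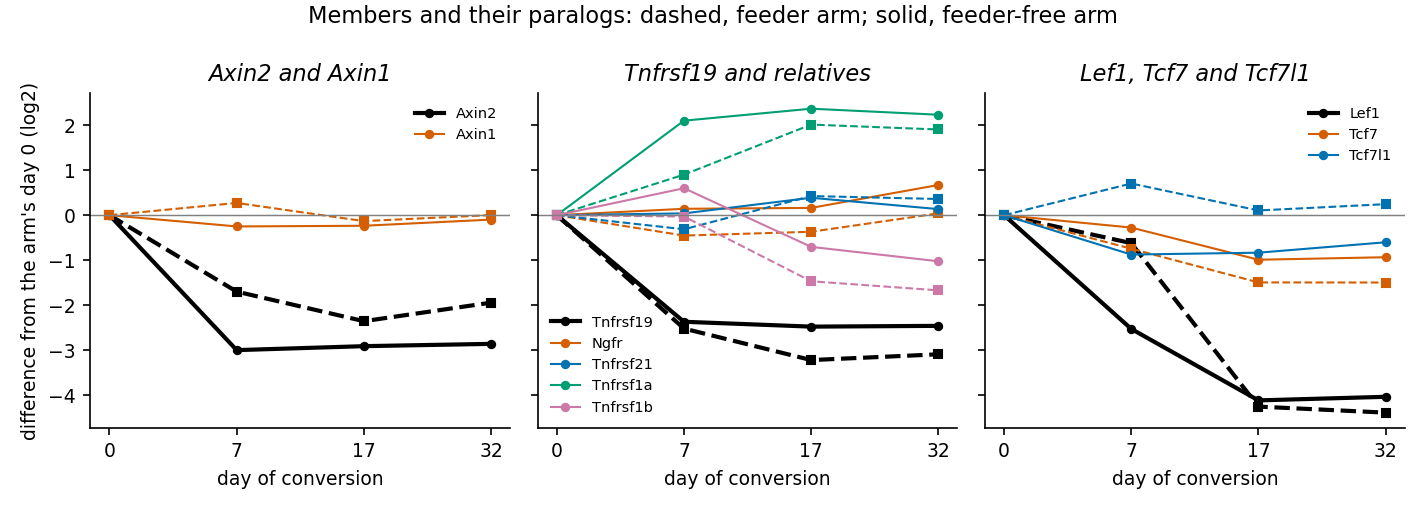
Difference of the mean log2 value from the same arm's day 0 array (vertical axis) at each day of conversion (horizontal axis, days evenly spaced) for Axin2, Tnfrsf19 and Lef1 (thick black lines) and their measured paralogs. Dashed lines with squares stand for the feeder arm and solid lines with circles for the feeder-free arm; feeder points are single arrays. Axin1 stays within 0.27 of 0 while Axin2 ends at -1.94 in the feeder arm and -2.86 in the feeder-free arm.

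Of 17 target and feedback genes measured, the 3 above included, 5 fell and 1 rose from day 0 to day 7, and 6 fell and 1 rose to day 32. The median change of the 14 others was -0.17 at day 7, against -0.04 for all genes, and -0.26 at day 32, against 0.05 for all genes. Of these 14, 2 fell and 1 rose at day 7, where 16.0% of all genes were called, and 3 fell and 1 rose at day 32, where 31.0% were, so that their counts lie near the share over all genes. Cdx2, a caudal homeobox factor of the trophectoderm, fell by 2.55 ± 0.60 to day 7 (limma, adjusted p = 0.0247), and more in the feeder arm than in the feeder-free arm (-3.64 and -1.43, adjusted p of the difference 1.43e-06). Rnf43, a ubiquitin ligase that takes Frizzled receptors off the cell surface, fell by 0.70 ± 0.12 to day 7 (limma, adjusted p = 0.00672). Nkd1, another feedback inhibitor, changed to day 7 by -0.58 in the feeder arm and by 0.06 in the feeder-free arm, a difference of -0.63 ± 0.18 (limma, adjusted p = 0.023). Over both arms its change was -0.21 ± 0.13 to day 7 (adjusted p = 0.334) and -0.56 ± 0.13 to day 32 (adjusted p = 0.0115), and the day 32 call was lost without the feeder day 0 array. Dkk1, a secreted antagonist of Lrp5 and Lrp6, went the other way and rose by 2.04 ± 0.58 to day 7 (adjusted p = 0.0457) and by 3.11 ± 0.58 to day 32 (adjusted p = 0.00411). The day 7 rise of Dkk1 was 0.865 in the feeder arm and 2.62 in the feeder-free arm. Lgr5 and Notum lay below 8.10 on all 11 arrays. With 8 group means the 5 falls and 1 rise at day 7 became 9 falls and 5 rises. Among all 14506 genes those called went from 2322 to 4887 with that change. Without either feeder-free day 7 array 3 falls, namely Axin2, Tnfrsf19 and Rnf43, and 0 rises were left. The day 7 call of Dkk1 was lost without any one of the 7 feeder-free arrays, with the replicate block and with trend and robust in eBayes, and that of Cdx2 without either feeder-free day 7 array.

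**Figure D3:**
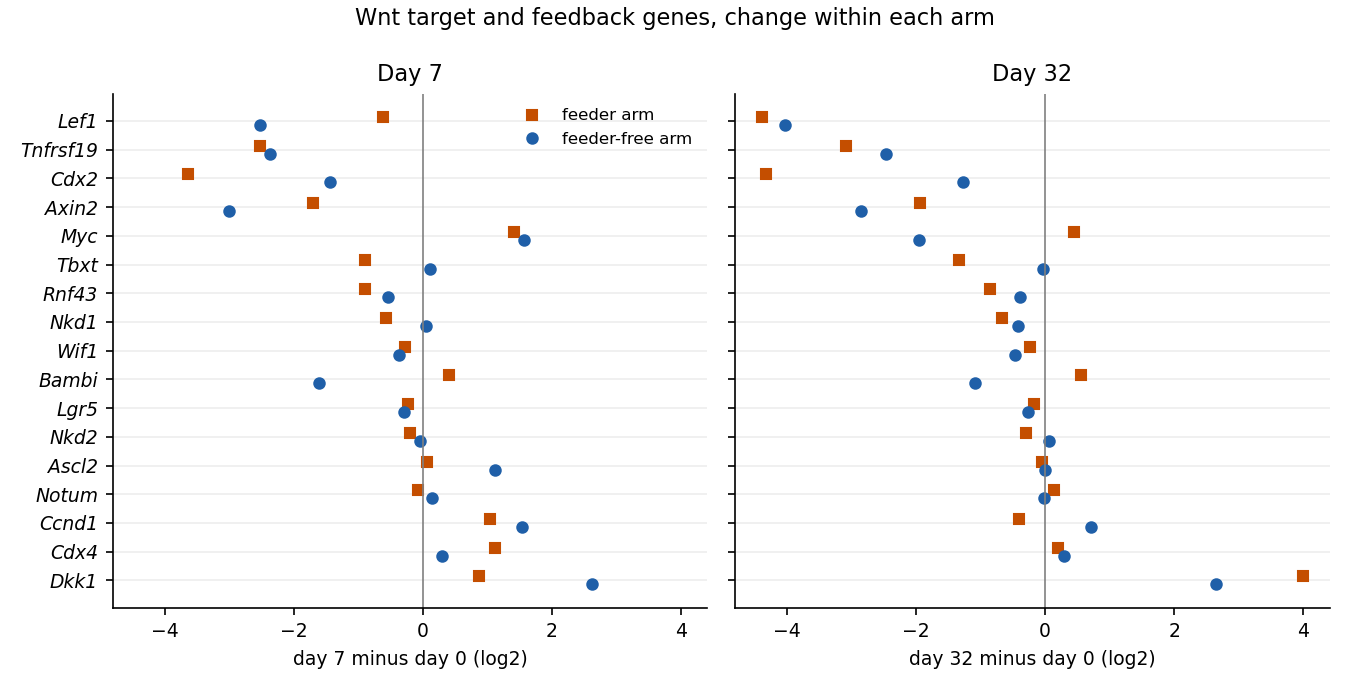
Change from day 0 (log2, horizontal axis) at day 7 (left) and day 32 (right) of the 17 measured Wnt target and feedback genes (rows), with a square for the feeder arm and a circle for the feeder-free arm. At day 7 Lef1 shows -0.62 in the feeder arm and -2.53 in the feeder-free arm; at day 32 Lef1, Tnfrsf19, Cdx2 and Axin2 lie left of 0 in both arms and Dkk1 lies right of it.

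Among ligands, Wnt3a, which signals through beta-catenin, fell in both arms. It fell by 2.15 ± 0.18 to day 7 (limma, adjusted p = 0.000364), with -1.67 in the feeder arm and -2.48 in the feeder-free arm, and its change to day 32 was -2.07 ± 0.18. Wnt9a fell by 0.41 ± 0.10 to day 7. Wnt7b rose by 2.41 ± 0.41 to day 7 (limma, adjusted p = 0.0079) and by 3.62 ± 0.41 to day 32. Its day 7 rise was 1.19 in the feeder arm and 3.18 in the feeder-free arm. It lay at 12.74 in the feeder arm and at 12.86 and 12.79 in the feeder-free arm at day 32, against 9.16 in the feeder arm and 9.02 in the feeder-free arm at day 0. Wls, which carries Wnt proteins to the cell surface, changed to day 7 by -0.04 in the feeder arm and by -1.12 in the feeder-free arm, a difference of 1.08 ± 0.18 (limma, adjusted p = 0.000625). Over both arms its change was -0.70 ± 0.24 to day 7 (adjusted p = 0.0832) and -1.90 ± 0.24 to day 32 (adjusted p = 0.00076). In all, 1 of 19 genes for ligands and their secretion rose and 2 fell at day 7 (16.0% of all genes called), and 1 rose and 3 fell at day 32 (31.0%). Of 16 receptor genes and their ligases, 1 rose and 3 fell at day 7, and 2 rose and 5 fell at day 32, against the same shares. The Frizzled receptor gene Fzd3 was lower at day 32 (-1.97 ± 0.22, adjusted p = 0.000468), Ror2, a receptor of noncanonical Wnt signals, was lower at day 7 (-0.85 ± 0.18, adjusted p = 0.0169), and Lgr4, an R-spondin receptor, rose by 0.62 ± 0.16 (adjusted p = 0.0355).

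Of 18 secreted modulators, 3 rose and 1 fell at day 7 (6.74% of all genes called higher and 9.27% lower), and 3 rose and 2 fell at day 32 (17.4% higher and 13.7% lower). Besides Dkk1, Sfrp1, a secreted Frizzled-related protein that binds Wnts, rose by 2.72 ± 0.28 to day 7 (limma, adjusted p = 0.000835) and by 3.89 ± 0.28 to day 32 (adjusted p = 7.29e-05). Its day 7 rise was 1.82 in the feeder arm and 3.39 in the feeder-free arm. Frzb, of the same protein family, rose by 1.80 ± 0.47 to day 7 (adjusted p = 0.0345) and fell by 2.12 ± 0.42 from there to day 17 (adjusted p = 0.0179). Rspo3, an R-spondin that enhances Wnt signals, stood at 8.15 on the feeder day 7 array, against 11.30 and 11.58 on the feeder-free day 7 arrays, and was 2.83 ± 0.75 higher at day 32 than at day 0 (adjusted p = 0.0201).

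Of the 16 measured genes of the destruction complex and beta-catenin other than Axin2, 1 rose and 4 fell at day 7 (6.74% of all genes called higher and 9.27% lower), and 4 rose and 4 fell at day 32 (17.4% higher and 13.7% lower). Beta-catenin itself (Ctnnb1) changed by -0.21 ± 0.13 to day 7 (adjusted p = 0.31), Gsk3a by -0.03 ± 0.10 (adjusted p = 0.888) and Gsk3b by 0.03 ± 0.11 (adjusted p = 0.895). Amer1, an adaptor of the complex, fell by 1.54 ± 0.16 to day 7 (limma, adjusted p = 0.00104), and Btrc, which recognises marked beta-catenin, fell by 1.15 ± 0.26 (adjusted p = 0.0202). The day 7 change of Btrc was -0.35 in the feeder arm and -1.70 in the feeder-free arm. Apc, a scaffold of the complex, rose by 0.58 ± 0.14 to day 7 (limma, adjusted p = 0.0253). Of the 12 measured TCF/LEF factors and nuclear partners other than Lef1, 2 rose and 2 fell at day 7, and 3 rose and 2 fell at day 32, against the same shares. The corepressor gene Tle4 rose by 1.82 ± 0.14 to day 7 (adjusted p = 0.000212) and by 2.53 ± 0.14 to day 32, and Bcl9l, a coactivator of beta-catenin, by 0.76 ± 0.11 and 1.62 ± 0.11.

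Stem cell genes that Tcf7l1 is known to repress in mouse cells differed between the arms in their change to day 7, as Lef1 did. Between day 0 and day 7 Nanog changed by -0.06 in the feeder arm and by -3.72 in the feeder-free arm. Klf2 changed by 0.03 in the feeder arm and by -2.64 in the feeder-free arm. Esrrb, an orphan nuclear receptor, changed by 0.37 in the feeder arm and by -1.71 in the feeder-free arm. Tfcp2l1, a factor of the naive state, changed by -0.20 in the feeder arm and by -2.80 in the feeder-free arm. Part of this lay in the single day 0 arrays. The feeder minus feeder-free difference was -1.78 at day 0 and 0.88 at day 7 for Klf2. It was -1.13 and 0.95 for Esrrb, -0.85 and 1.74 for Tfcp2l1, and -0.56 and 3.09 for Nanog. The difference between the arms passed for 5 of 6 measured genes of this list, all with the higher change in the feeder arm, where 22.0% of all genes passed and 10.9% in that direction (limma; for Klf2 the difference was 2.67 ± 0.22, adjusted p = 1.21e-06). Of the 7 stem cell and hypoblast markers, 3 passed the same test with the higher change in the feeder arm and 4 with the lower. Sox2, a stem cell marker outside the list of 6, changed by -0.24 in the feeder arm and by -2.87 in the feeder-free arm. The difference was therefore not limited to the genes of that list. Whether Tcf7l1 acts on Sox2 or on the listed genes in these cells was not tested. Over both arms 2 of the 6 Tcf7l1-repressed genes fell at day 7 (9.27% of all genes called lower). Of these 6, 4 fell and 1 rose at day 32 (13.7% lower and 17.4% higher). On the feeder day 7 array Lef1 (-0.62) and Nanog (-0.06) lay within 1 log2 unit of their day 0 values in the same arm, while Axin2 (-1.70), Tnfrsf19 (-2.52), Wnt3a (-1.67) and Amer1 (-1.19) stood further below theirs. That contrast rests on a single array and on chosen genes, and does not describe the Wnt lists as a whole. On the same array Rnf43 (-0.90), Tcf7 (-0.75), Nkd1 (-0.58) and Btrc (-0.35) also lay within 1 log2 unit of day 0. Dkk1 (0.865) lay above its day 0 value, and Cdx2 (-3.64) lay further below its own.

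Genes with the most similar courses were taken by Pearson correlation of log2 values over the 11 arrays, which share day and culture. For Axin2 these were Wdr31 (r = 0.993), Ust, a sulfotransferase (0.987), Pfkfb3, a regulator of glycolysis (0.980), Mrpl2, a protein of the mitochondrial ribosome (0.980), and Naa40, an N-terminal acetyltransferase (0.978). For Tnfrsf19 they were the forkhead gene Foxe1 (0.994), Heph, a ferroxidase (0.992), the tubulin gene Tubb3 (0.992), Rbm24, an RNA-binding protein (0.991), and Rsph9, a part of the ciliary radial spoke (0.984). For Lef1 they were the germ cell helicase gene Ddx4 (0.996), the histone demethylase gene Kdm3a (0.994), Clec2d2 (0.994), Mfng, a glycosyltransferase that acts on Notch (0.994), and Cnpy1 (0.993). The neighbours of Lef1 were picked on arrays that include feeder day 7, so their sharing its delay follows from the choice. Their changes to day 7 lay between -0.33 and 0.01 in the feeder arm and between -3.00 and -1.54 in the feeder-free arm. Over the 11 arrays Axin2 and Tnfrsf19 correlated at 0.90, Axin2 and Lef1 at 0.76, and Tnfrsf19 and Lef1 at 0.86. These values describe the 11 arrays and carry no test.

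**Figure D4:**
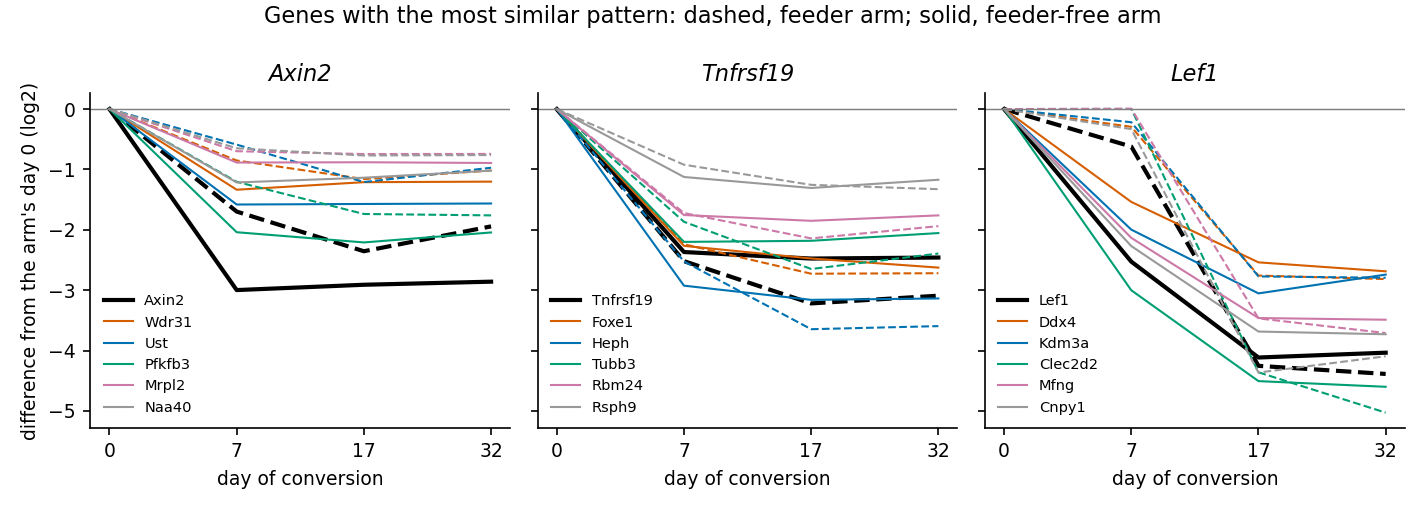
Difference of the mean log2 value from the same arm's day 0 array (vertical axis) at each day (horizontal axis, days evenly spaced) for Axin2, Tnfrsf19 and Lef1 (thick black lines) and the 5 genes with the highest correlation to each (coloured lines), dashed for the feeder arm and solid for the feeder-free arm. In the Lef1 panel the dashed lines stay near 0 at day 7, where Lef1 is at -0.62, and all lines are low by day 17.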

How the data were processed

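Each of the 11 samples was hybridized, as biotin-labelled RNA, to an Affymetrix Rat Gene 1.0 ST array. The authors deposited a table of log2 values, with a row for each probe set. The submitters' processing notes name RMA; its version, options and software are not given in the sources used here. The 11 columns share a median while their quartiles differ. Scanner files were not used here, so detection and saturation per probe are unknown, and RMA draws low values together.

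Of 29214 rows, 15310 had 1 gene symbol in the platform annotation, 323 several and 13581 none; the last are unnamed here. Of the 15310 rows 15279 matched a RefSeq gene identifier (GRCr8) and 0 symbols changed. The row with the highest mean stood for each of the 527 genes with several rows, which left 14506 genes, with no filter on dim ones. Promoter sequences came from RefSeq (GRCr8).

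Groups came from the labels. Limma 3.58.1 in R 4.3.3 (lmFit, eBayes) was fitted to all 11 arrays with terms for day and culture (6 residual degrees of freedom), and again with 8 group means (3 degrees of freedom) for differences between the arms. P values were adjusted by Benjamini-Hochberg over all genes and called under 0.05. The labels name biological replicates without saying whether cultures were separate, so the spread between replicates may be technical. With 8 group means the p values rest on that spread. In the fit with terms for day and culture, the residual spread also holds differences between the arms in their course over time. For Lef1 at day 7 against day 0 the SE was 0.47 in that fit and 0.11 with 8 group means. The fits were tested on simulated data.

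The 3 genes and the 11 gene lists were chosen with earlier results of these data known, so their p values are not independent support. The lists were Wnt targets and feedback genes, ligands, receptors, secreted modulators, destruction complex, TCF/LEF factors and partners, Tcf7l1-repressed genes, mesendoderm genes, paralogs, stem cell and hypoblast markers, and fibroblast markers. Named were the 3 genes, up to 4 called members per list with the largest change (2 where none was called), all paralogs and the 5 nearest genes in course; Axin1, Tcf7l1, Ngfr and Tnfrsf21 fall under the paralogs. Nkd1, Lgr5, Notum, Ctnnb1, Gsk3a, Gsk3b, Postn, Sox2, Tbxt, Mixl1 and Evx1 were named after their values were seen. As alternatives, the dimmest 25% of genes were left out, rows of a gene were averaged, arrays were quantile normalized or centred on the median, eBayes was run with trend and robust, and 8 group means, a replicate block or the feeder-free arm by itself were used; each array was also left out in turn. Matplotlib 3.10.9 drew the figures.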

Additional observations from a re-analysis of the deposited data

Results flagged for a closer look

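The test of a difference between the arms picked out 5 results for Axin2 and Lef1, and 0 for Tnfrsf19. Each is the change in the feeder arm minus that in the feeder-free arm, in limma with 8 group means. Of all genes the same test called 22.0% from day 0 to day 7, 19.7% from day 7 to day 17 and 10.6% from day 0 to day 32. Tnfrsf19 narrowly missed the threshold from day 7 to day 17 (-0.59, limma, adjusted p = 0.051) and passed there under several alternative settings. For Axin2 the difference was 1.30 from day 0 to day 7, -0.75 from day 7 to day 17 and 0.92 from day 0 to day 32. For Lef1 it was 1.91 from day 0 to day 7 and -2.04 from day 7 to day 17. From day 0 to day 32 the difference for Lef1 was -0.35 ± 0.21 (adjusted p = 0.379), so that the test did not separate the arms over the whole conversion. No group held the 4 arrays needed to test for an outlying sample.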

How the results depend on the processing

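Over the settings tried, 370 of 411 values of Axin2, Tnfrsf19 and Lef1 kept their direction and their side of the threshold, 19 lost the call, 14 gained it and 8 turned in sign, all 8 among changes that did not pass. Below, the causes of these shifts were not tested. With the replicate block the day 7 fall of Lef1 was -1.78 (adjusted p = 0.0681), the excess of Tnfrsf19 in the feeder arm 0.38 (adjusted p = 0.104) and, with centring on the median, 0.38 (adjusted p = 0.0563). The block changed no other call of the 3 genes except the differences of Tnfrsf19 between the arms, -0.59 from day 7 to day 17 and -0.71 from day 0 to day 32, which then passed. They also passed without the dimmest genes, at -0.59 and -0.63, and that to day 17 passed with centring (-0.71) and with trend and robust (-0.59). With 8 group means the day 17 change against day 7 passed for Axin2 (-0.28) and Tnfrsf19 (-0.40), and the culture difference for Axin2 (-0.35) and Lef1 (0.72), while Lef1 turned to -0.027 from day 17 to day 32. With the feeder-free arrays alone Axin2 turned to 0.089 from day 7 to day 17. Deviations of the feeder-free pairs correlated at 0.03 between days 7 and 17, -0.20 between days 7 and 32, and -0.10 between days 17 and 32. These low values show no clear replicate effect shared between days. They do not settle whether replicates with the same number were carried on from day to day.

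Leaving out single arrays gave for day 7 against day 0 a range of -2.62 to -1.56 for Lef1. For day 17 against day 7 it gave -0.28 to 0.10 for Axin2 and -2.55 to -1.57 for Lef1, and for day 32 against day 17 it gave -0.10 to 0.18 for Tnfrsf19 and -0.23 to 0.34 for Lef1. The culture difference ranged between -0.51 and -0.12 for Axin2, where it passed without the feeder day 7 array, and between 0.31 and 0.53 for Tnfrsf19. The difference of Tnfrsf19 between the arms from day 7 to day 17 ranged between -0.72 and -0.47. Differences between the arms could not be fitted without a single array they need.

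The count of all genes called also moved with the settings. For day 7 against day 0 it was 2322, and 4887 with 8 group means, 1325 with the replicate block, 5348 with the feeder-free arrays alone, and 684 to 4448 without single arrays. For day 17 against day 7 it was 1850, and 5347, 984, 3458, and 364 to 2344 under the same settings. For day 32 against day 17 it was 0, and 934 with 8 group means, 1062 with the feeder-free arrays alone, and 0 to 232 without single arrays. For day 32 against day 0 it was 4504, and 2536 to 5528 without single arrays. For the cultures it was 4749, and 7699 with 8 group means. Quantile normalization called 633 genes higher and 628 lower for day 17 against day 7, where 1320 and 530 were called otherwise. Centring gave 2169 positive and 1477 negative differences between the arms to day 7, where 1575 and 1618 were called, and 1331 and 1964 from day 7 to day 17, where 1551 and 1301 were called. The count of Wnt target genes under these settings was added after seeing the data.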

Other observations

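Of 8 measured genes of the mesendoderm that Wnt signals can induce, 0 rose and 2 fell at day 7, and 0 rose and 2 fell at day 32, in each case Cdx2 and Wnt3a. Of all genes 16.0% were called at day 7 and 31.0% at day 32. Tbxt, or brachyury, the usual marker of this lineage, lay below 8.10 on 10 of 11 arrays, the exception being the feeder day 0 array at 8.67. Mixl1 and Evx1, homeobox genes of the same lineage, changed by 0.03 and -0.36 to day 7 and did not pass.

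Of the 7 stem cell and hypoblast markers, 4 rose and 1 fell at day 7 and 4 rose and 2 fell at day 32, against the same shares. Gata6, a hypoblast factor, and Pdgfra, a receptor on hypoblast cells, rose by 4.93 and 5.39 to day 32. Of the 16 fibroblast markers, the fit over both arms called 1 lower at day 7 (Col5a1) and 2 lower at day 32 (Col5a1 and Pdgfrb), and 0 higher. Among all genes 9.27% were called lower and 6.74% higher at day 7, and 13.7% lower and 17.4% higher at day 32. The change in the feeder arm minus that in the feeder-free arm was negative and passed for 6 of 16 at day 7 (11.2% of all genes) and for 9 of 16 at day 32 (4.73% of all genes). It was positive and passed for 1 at each day (10.9% of all genes at day 7 and 5.87% at day 32). Postn changed to day 32 by -4.92 in the feeder arm and by 0.07 in the feeder-free arm. Over all days 6 of the 16 were higher and 0 lower in the feeder arm than in the feeder-free arm, where 15.5% of all genes were higher and 17.2% lower.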
